A study of Mus musculus with 2 samples.

Results

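Metallothioneins are small cysteine-rich proteins of the cytosol that bind zinc and copper, and in the liver they are a main store for both metals. Their genes are switched on by Mtf1, a transcription factor that senses zinc and binds short metal response elements, and the liver also raises them under glucocorticoids and inflammatory cytokines. Cytosolic zinc is set by transporters of opposite direction, the Slc39 (ZIP) family, which brings zinc into the cytosol, and the Slc30 (ZnT) family, which moves it out of the cell or into organelles. Described here are 6 genes of this system, the metallothioneins Mt1 and Mt2, the regulator Mtf1, the importer Slc39a14 and the exporters Slc30a1 and Slc30a10. They were taken by name from 20317 mouse genes with a symbol in the deposited mRNA table, of which 12012 had a value, and all 6 had a value in both libraries. The genes were chosen with their levels in these libraries known, so the levels and ratios are a description and were not tested.

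RNA-seq was performed on primary hepatocytes, isolated from the liver of wild-type C57BL/6J mice by enzyme perfusion and a density gradient. One group received oil by intraperitoneal injection and the other a 20% solution of CCl4 in mineral oil, at 2.5 ml of CCl4 per kilogram, with 2 injections a week. CCl4 (carbon tetrachloride) is turned by hepatocyte enzymes into radicals that damage the cell, and repeated dosing brings fibrosis. The labels give 8 weeks of injection whereas the methods of the study give 4 weeks, and the methods describe male mice, 5 weeks old. There was 1 library per group, with the number of mice behind each not given in the sources used here, so no difference has a replicate check.

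The depth read from the RPKM values was about 57993000 reads for oil and 64656000 for CCl4. RPKM is the number of reads scaled by transcript length and by library size, and the table lists any value under 1 RPKM as 0. Ratios are the CCl4 value over the oil value on the log2 scale, with 0.1 RPKM added to each, and a gene is called higher or lower past a log2 ratio of 1 in size. Taken over the mRNAs listed above 0 in both columns, the median log2 ratio was 0.33, and this shift towards CCl4 is part of every ratio unless stated. The hepatocyte label fitted the levels of Alb, the albumin gene, at 8656 RPKM in oil and 6476 RPKM in CCl4. All 9 matched hepatocyte markers were at 50.1 RPKM or more in both libraries. These levels alone do not show how pure the preparations were. Markers of other cell types, pancreatic enzymes among them, were present, differed between the libraries and are given after the transporters.

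Of the 6 genes, 4 were called lower in the CCl4 library (Mt1, Mt2, Slc39a14 and Slc30a10), 0 were called higher, and Mtf1 and Slc30a1 were not called. Over all genes with a value, 5.25% were called lower and 15.5% higher. After scaling to the median mRNA the same 4 genes were called lower and 0 higher, beside 9.52% and 8.44% of all genes. Since the 6 genes were chosen on this same comparison, nothing is read from their count against that background. Their median log2 ratio was -1.61, beside 0.30 over the 10689 genes with a value in both libraries.

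**Figure D1:**
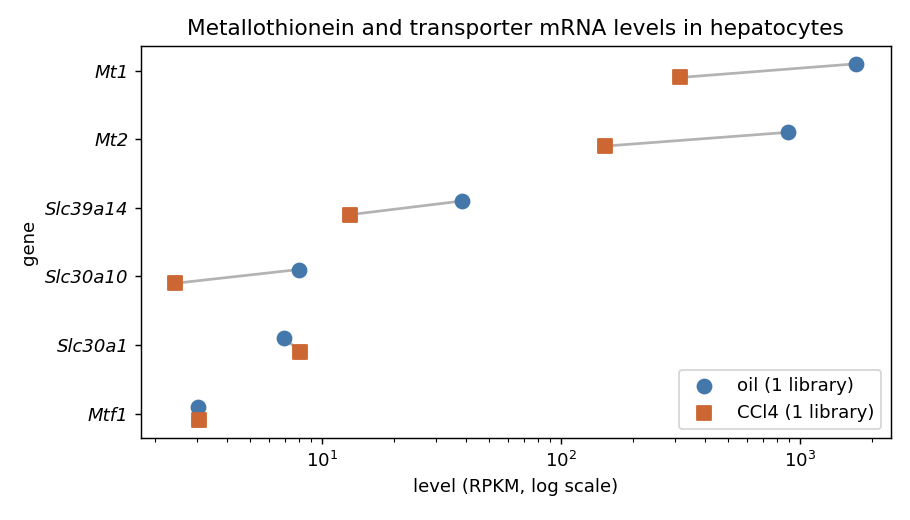
Level of each gene in RPKM on a log axis, with a circle for the oil library and a square for the CCl4 library, 1 library each and no error bars. Mt1, Mt2, Slc39a14 and Slc30a10 sit to the left in the CCl4 library, whereas both symbols of Mtf1 and of Slc30a1 lie at nearly the same level. Circles are drawn slightly above squares so that neither hides the other.

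Mt1 was the most abundant of the 6 genes in both libraries. Its level was 1723 RPKM in oil and 314.4 RPKM in CCl4, a 5.48-fold lower level with a log2 ratio of -2.45. Ranked by RPKM among 12012 genes, Mt1 was at place 23 in the oil library and at place 117 in the CCl4 library. The RPKM steps correspond to at least 11190 reads in oil and at least 2277 in CCl4, so that counting error alone places the log2 ratio between -2.52 and -2.39 (95% exact Clopper-Pearson interval). Such intervals leave out the variation between animals and preparations, which 1 library per group cannot show, and amplified copies of a molecule count as separate reads.

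Mt2, which lies next to Mt1 on chromosome 8, followed the same pattern at a lower level. It was at 887.3 RPKM in oil and 153.3 RPKM in CCl4, 5.79-fold lower with a log2 ratio of -2.53 and a counting interval from -2.64 to -2.42 (at least 4168 and 803 reads). The ratio of Mt1 to Mt2 was 1.94 in oil and 2.05 in CCl4, so both genes were lower in nearly the same proportion. The genes are related in sequence, and a different split of shared reads between them would leave the sum of their reads as it is. Their summed RPKM, scaled by the length of each transcript, could still change. Summed, Mt1 and Mt2 went from 2610 to 467.8 RPKM, a log2 ratio of -2.48, and from 0.624% to 0.130% of the summed mRNA RPKM. The other members of the family, Mt3, which is known from brain, and Mt4, known from squamous epithelium, were listed at 0 in both libraries.

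Sequences around the starts of these genes are shown because Mt1, Mt2 and Slc30a1 are all known targets of Mtf1, of which the first pair was called lower and Slc30a1 was not. They are RefSeq windows of 300 bases (GRCm38.p6), written 5′ to 3′, with 250 bases before the start site used for the window and 50 from it on. For Mt2, Mtf1 and Slc30a10 that site is the gene start of the RefSeq gene table. The gene as given there begins 206 bases earlier for Mt1 and 84 bases earlier for Slc30a1, so that 44 and 166 bases of these windows lie before the gene. Capitals mark matches to the core of the metal response element, searched as TGCACNC and TGCGCNC on both strands, so that a match on the opposite strand reads GNGTGCA or GNGCGCA.
Mt1, chr8:94178839-94179138, plus strand: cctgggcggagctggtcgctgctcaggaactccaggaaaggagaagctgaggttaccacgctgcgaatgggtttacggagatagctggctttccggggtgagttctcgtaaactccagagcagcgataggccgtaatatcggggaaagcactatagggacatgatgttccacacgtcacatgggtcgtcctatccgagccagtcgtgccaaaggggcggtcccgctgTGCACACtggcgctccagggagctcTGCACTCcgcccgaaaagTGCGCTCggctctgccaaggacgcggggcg
Mt2, chr8:94172368-94172667, plus strand: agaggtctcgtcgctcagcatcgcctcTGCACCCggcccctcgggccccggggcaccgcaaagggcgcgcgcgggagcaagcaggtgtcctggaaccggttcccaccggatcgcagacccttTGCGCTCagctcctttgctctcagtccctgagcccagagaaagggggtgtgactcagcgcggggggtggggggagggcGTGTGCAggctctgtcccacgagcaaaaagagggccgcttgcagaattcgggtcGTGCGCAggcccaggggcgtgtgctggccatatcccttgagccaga
Slc30a1, chr1:191906531-191906830, plus strand: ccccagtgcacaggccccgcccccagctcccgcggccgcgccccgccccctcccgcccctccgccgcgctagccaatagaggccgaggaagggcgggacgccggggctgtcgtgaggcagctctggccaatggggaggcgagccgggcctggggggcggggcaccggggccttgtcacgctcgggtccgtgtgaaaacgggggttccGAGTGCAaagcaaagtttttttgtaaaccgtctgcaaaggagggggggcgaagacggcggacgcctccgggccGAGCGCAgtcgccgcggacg
Slc30a10, chr1:185454598-185454897, plus strand: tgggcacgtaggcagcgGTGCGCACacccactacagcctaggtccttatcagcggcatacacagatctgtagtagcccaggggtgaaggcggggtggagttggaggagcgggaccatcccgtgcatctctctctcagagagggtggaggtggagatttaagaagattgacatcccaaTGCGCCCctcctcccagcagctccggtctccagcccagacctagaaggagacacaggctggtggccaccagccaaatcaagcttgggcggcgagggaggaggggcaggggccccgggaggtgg
The Mt1 window held 3 matches, all on the plus strand and starting at bases 228, 253 and 271 of the 300, of which 1 lies before the start site of the window and all 3 lie inside the gene as the gene table gives it. The Mt2 window held 4, with 2 on each strand, and 3 of these lie before its start. Slc30a1, which was not called, held 2 matches, both on the minus strand, with 1 before the start site of the window and both inside the gene of the gene table. Slc30a10, which was called lower, held 3, all before its start, of which the first pair overlaps on opposite strands. The Mtf1 window held 0 matches. Only the 300 bases of each window were searched, so these counts depend on the start site used. Where transcription began was not measured. Among all 32851 windows of the table, 25.7% held at least 1 match, 7.11% at least 2, 1.97% at least 3 and 0.518% at least 4. These windows are rich in G and C, from 60.7% in Mt1 to 73.0% in Slc30a1 against a median of 52.7%, and the search letters are too. The core of the antioxidant response element, TGACNNNGC on both strands, was found once each in Mt2 and Slc30a1, where 12.4% of all windows held it. The STAT site TTCNNNGAA, a palindrome, was in none of the 5 windows and in 8.30% of all windows. A match is a stretch of letters, not a measured binding site, and binding was not measured in these libraries. Slc39a14 had no window in the table.

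Mtf1, the zinc-sensing activator itself, was scarce and nearly level. It was at 3.01 RPKM in oil and 3.05 RPKM in CCl4, with a log2 ratio of 0.02. At least 157 and 177 reads stand behind these values, which gives a counting interval from -0.30 to 0.34. After both libraries were scaled to the median mRNA its log2 ratio was -0.30, so a small difference in either direction cannot be told apart from the scaling. The level of an mRNA says nothing of how much of the factor was bound to zinc.

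Slc39a14 (ZIP14) carries zinc, iron and manganese into hepatocytes. Among the Slc30 and Slc39 genes it had the largest difference in RPKM as deposited, a place that depends on the scaling. It was at 38.7 RPKM in oil and 13.1 RPKM in CCl4, 2.95-fold lower with a log2 ratio of -1.55 and a counting interval from -1.85 to -1.28 (at least 368 and 139 reads). Its 3 RefSeq transcripts were listed separately, at 37.1 to 38.7 RPKM in oil and 12.7 to 13.1 RPKM in CCl4, and each had a log2 ratio of -1.55. They share most of their sequence, and values this close give no information on which isoform was present.

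Slc30a10 (ZnT10) belongs to the zinc exporter family by sequence but is best known for carrying manganese out of hepatocytes into bile. It was at 7.99 RPKM in oil and 2.43 RPKM in CCl4, 3.28-fold lower with a log2 ratio of -1.68 and a counting interval from -2.02 to -1.42 (at least 380 and 129 reads). Thus an importer and an exporter of manganese were both lower, and the ratio of Slc39a14 to Slc30a10 was 4.84 in oil and 5.39 in CCl4.

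Slc30a1 (ZnT1), the zinc exporter of the plasma membrane, did not follow the metallothioneins. It was at 6.94 RPKM in oil and 8.12 RPKM in CCl4, with a log2 ratio of 0.22 and a counting interval from -0.01 to 0.46 (at least 273 and 356 reads). Scaled to the median mRNA, its log2 ratio was -0.10, so its direction depends on the scaling. Slc30a1 and Slc30a10 stood at similar levels in oil, with a ratio of 0.869, and at a ratio of 3.34 in CCl4. Ordered by level, the oil library had Mt1, Mt2, Slc39a14, Slc30a10, Slc30a1 and Mtf1, while in the CCl4 library Slc30a10 moved to the last place, below Mtf1.

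**Figure D2:**
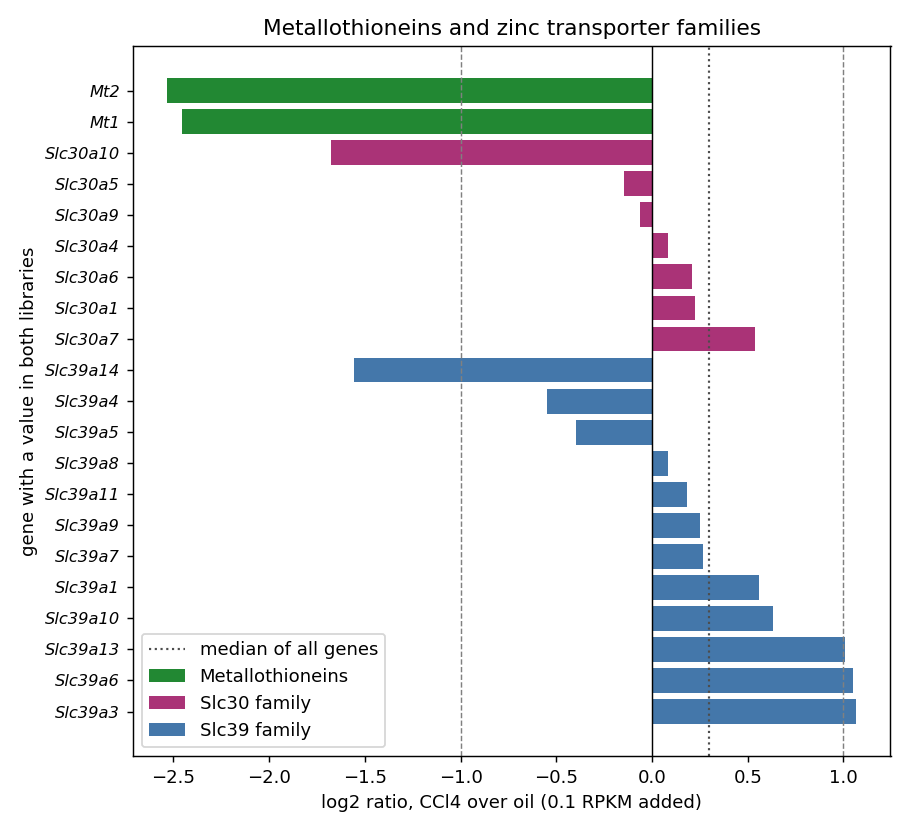
Bars give the log2 ratio of CCl4 over oil for each metallothionein and each Slc30 and Slc39 gene with a value in both libraries (1 library each). Dashed lines mark a log2 ratio of 1 in either direction and the dotted line the median of all genes at 0.30. Mt1, Mt2, Slc30a10 and Slc39a14 are the bars past -1.

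The wider families put these values in context, and their counts stand beside the 5.25% of all genes called lower and 15.5% called higher. Of 28 genes in the metallothionein, Slc30 and Slc39 families, 21 had a value and 7 were listed at 0 in both libraries. The 16 transporters beyond the 3 described above had log2 ratios from -0.55 to 1.07 with a median of 0.23, and 0 of them were called lower. In the Slc30 family 1 of 7 genes with a value was called lower (Slc30a10) and 0 higher, with a family median of 0.08. Slc30a9 went from 11.6 to 11.1 RPKM and Slc30a5, a zinc carrier of the secretory pathway, from 10.2 to 9.17 RPKM, neither of them called.

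In the Slc39 family 1 of 12 genes with a value was called lower (Slc39a14) and 3 higher, with a median of 0.26. The 3 were Slc39a3, from 3.96 to 8.41 RPKM with a log2 ratio of 1.07, Slc39a6, from 1.19 to 2.56 RPKM at 1.05, and Slc39a13, from 3.40 to 6.94 RPKM at 1.01. All 3 lie just past the limit, and none was called after scaling to the median mRNA or with 1 RPKM added. Slc39a1, a zinc importer of the plasma membrane, was the most abundant of the family in both libraries, at 44.1 and 65.0 RPKM. Slc39a14 was the second in oil and the fifth in CCl4. Its share of the summed RPKM of the family went from 22.8% to 7.40%, whereas that sum was 169.5 RPKM in oil and 177.2 RPKM in CCl4. The other importers above 10 RPKM were not called, with Slc39a7 at 29.2 and 35.2 RPKM, Slc39a4 at 19.2 and 13.1 RPKM, and Slc39a8, which also carries manganese, at 15.6 and 16.6 RPKM. In oil Slc39a14 was 2.48 times the level of Slc39a8, and in CCl4 0.792 times.

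**Figure D3:**
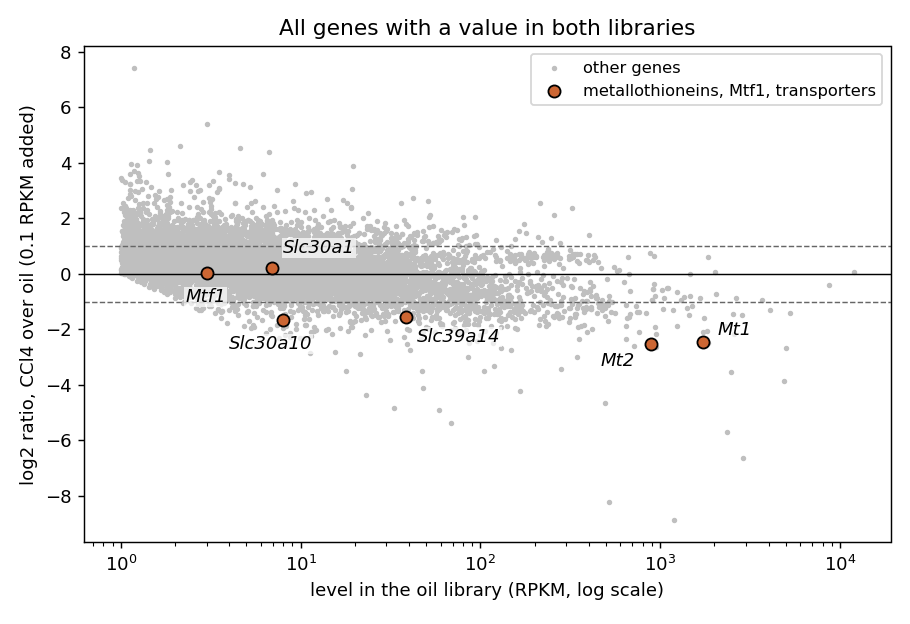
Log2 ratio of CCl4 over oil against the level in the oil library (RPKM, log axis), 1 grey point for each gene with a value in both libraries and orange points for the 6 genes. Mt1 and Mt2 lie at the abundant end at ratios near -2.5, Slc39a14 and Slc30a10 lie below the dashed line at -1, and Mtf1 and Slc30a1 lie near 0.

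Among the 10689 genes with a value in both libraries, 29 had a lower log2 ratio than Mt2, 34 than Mt1, 142 than Slc30a10 and 180 than Slc39a14. Abundant genes were lower more often, however. Of the 45 genes within 2-fold of the oil level of Mt1, 23 were called lower and 8 had a lower ratio than Mt1, and of the 77 within 2-fold of Mt2, 45 were called lower. Around Slc39a14, 189 of 1450 genes were called lower (13.0%). Closest to Mt1 by log2 ratio within that window were Mup20, a major urinary protein, at -2.50, Mt2 at -2.53, and Orm1, the acute phase glycoprotein orosomucoid, at -2.64. Closest to Mt2 were Car3, a carbonic anhydrase, at -2.60, Mt1, and Orm1. Closest to Slc39a14 were Agxt2, Rarres1 and Cyp2c23, at -1.55, -1.55 and -1.56. Likeness here rests on 1 ratio between 2 libraries.

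Genes that share a regulator or a metal with these genes are given next, and their counts stand beside the 5.25% of all genes called lower and 15.5% called higher. Of 9 genes linked to Mtf1, 4 were called lower, 1 higher and 4 neither, with a median of 0.22. The list holds 4 of the 6 genes chosen on this comparison (Mt1, Mt2, Slc30a1 and Slc30a10), and of the other 5 genes 1 was called lower, 1 higher and 3 neither. Among these, Gclc, which makes the rate-limiting subunit for glutathione synthesis, went from 53.8 to 24.6 RPKM and was called lower at -1.12, a call lost at -0.96 when the 10 most abundant mRNAs were left out of the library size. The iron exporter Slc40a1 went from 49.4 to 127.8 RPKM and was called higher at 1.37. Selenow, a small selenoprotein, was at 30.9 and 41.4 RPKM and Ndrg1 at 15.1 and 19.8 RPKM, and neither was called.

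Of 10 copper handling genes, 1 was called higher, the copper pump Atp7a from 1.95 to 4.44 RPKM at 1.15, a call lost with 1 RPKM added (0.88) or scaling to the median mRNA (0.83), and 0 were called lower, with a median of -0.23. Sod1, the copper and zinc superoxide dismutase, went from 410.4 to 234.7 RPKM and its copper chaperone Ccs from 82.2 to 43.0 RPKM, at log2 ratios of -0.81 and -0.93 that stay short of the limit and pass it, at -1.13 and -1.26, after scaling to the median mRNA. So did the copper carrier of plasma, Cp, at 131.6 and 72.1 RPKM, with a log2 ratio of -0.87 that became -1.19. The importer Slc31a1 was at 19.3 and 14.3 RPKM, its relative Slc31a2 at 10.2 and 17.4 RPKM, and the chaperones Atox1 and Cox17 at 120.0 and 116.3 RPKM and at 22.6 and 25.1 RPKM. Commd1, which acts in copper export, was at 26.3 and 27.6 RPKM.

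Of 10 manganese and iron handling genes, 2 were called lower (Slc39a14 and Slc30a10) and 2 higher, Slc40a1 and the hepcidin copy Hamp2, which went from 17.3 to 53.1 RPKM at 1.61. Both lower genes are among the 6 chosen on this comparison, and of the other 8 genes 0 were called lower. After scaling to the median mRNA, Slc11a2 (-1.12), Tfrc (-1.05) and Sod2 were called lower as well. Hamp, the gene of the iron hormone hepcidin, was at 184.0 and 180.8 RPKM with a log2 ratio of -0.02. Hamp and Hamp2 are near-identical copies, so their reads could have been split unevenly. Sod2, the manganese superoxide dismutase of mitochondria, went from 36.9 to 19.7 RPKM at -0.90 and was not called unless scaled to the median mRNA (-1.22). Atp13a1, at 12.3 and 13.7 RPKM, was not called.

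Glucocorticoids and interleukin 6 are known inducers of metallothioneins, and interleukin 6 also of Slc39a14. Of 10 glucocorticoid-induced genes, 2 were called lower, Tat from 645.4 to 176.2 RPKM at -1.87 and Pck1 from 763.5 to 178.7 RPKM at -2.09, and 0 higher, with a median of -0.08. In the liver both are hepatocyte enzymes, of tyrosine breakdown and of glucose synthesis. The other genes of the list at 10 RPKM or more were not called, with Fkbp5 at 26.5 and 24.5 RPKM, Tsc22d3 at 81.5 and 79.2 RPKM, Sgk1 at 36.0 and 57.3 RPKM, Dusp1 at 51.7 and 67.2 RPKM, Klf9 at 39.4 and 26.5 RPKM and Zbtb16 at 13.1 and 8.11 RPKM, the last of which was called lower after scaling to the median mRNA, at -1.01. Of 14 acute phase and interleukin 6 response genes, 10 were called lower and 1 higher, with a median of -2.09. The 10 include Orm1, from 943.3 to 151.2 RPKM, Orm2, from 165.4 to 8.85 RPKM, and Lcn2, from 99.7 to 21.4 RPKM. The fibrinogen chains Fga, Fgb and Fgg had ratios from -2.15 to -2.08, the haem and haemoglobin carriers Hpx and Hp stood at -1.47 and -1.48, and the serum amyloids Saa1 and Saa2 at -5.70 and -6.65. The gene called higher was Saa3, from 80.5 to 336.6 RPKM, a serum amyloid that macrophages also make. The signalling genes of this list were not called, with Socs3 at 18.1 and 16.4 RPKM, Stat3 at 36.0 and 26.1 RPKM, and Il6ra, a subunit of the interleukin 6 receptor, at 12.1 and 11.0 RPKM.

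**Figure D4:**
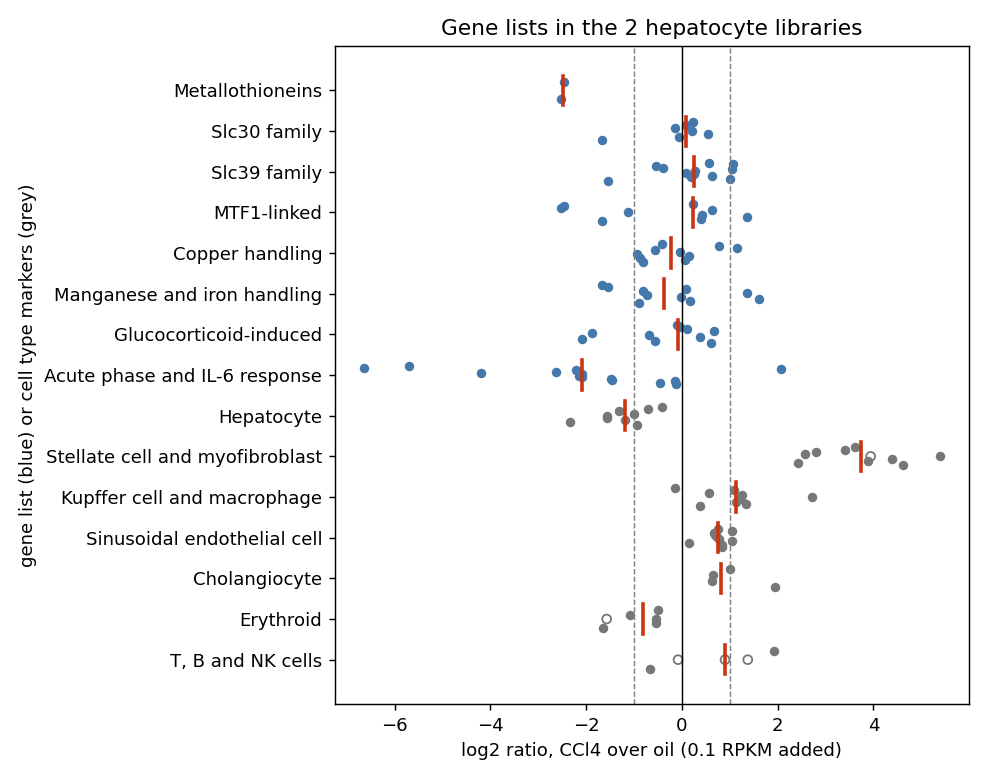
Each point is the log2 ratio of CCl4 over oil of 1 gene, open points are bounds for genes listed at 0 in 1 library, red lines are list medians, and dashed lines mark a ratio of 1 in either direction (1 library per group). The metallothioneins lie at -2.45 and -2.53, below every hepatocyte marker, while all stellate cell markers lie above 2.

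Marker levels of other cell types moved with these results. Their counts stand beside the 15.5% of all genes called higher and 5.25% called lower, or 8.44% and 9.52% after scaling to the median mRNA. All 10 stellate cell and myofibroblast markers were called higher, their summed level going from 76.3 to 934.0 RPKM, with Pdgfrb listed at 0 in oil. Of 9 Kupffer cell markers 6 were called higher (summed 1218 and 2507 RPKM), of 10 sinusoidal endothelial markers 2 (601.0 and 1024 RPKM) and of 4 cholangiocyte markers 2 (50.9 and 170.2 RPKM), while Sox9, Cftr, Muc1 and Cldn4 were listed at 0 in both. Of 6 erythroid markers 3 were called lower (3205 and 2152 RPKM), and of 5 lymphocyte markers 2 were called higher (7.56 and 13.5 RPKM). Of 9 matched hepatocyte markers 5 were called lower and 0 higher, with a median of -1.19, ratios from -2.33 in Cyp2e1 to -0.42 in Alb, and a summed level of 18035 and 10662 RPKM. After scaling to the median mRNA, 10 stellate cell, 2 Kupffer cell and 0 endothelial markers were called higher and 8 hepatocyte markers lower.

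Digestive enzymes known from the acinar cells of the pancreas were also abundant in both libraries. Of 16 such genes, listed after their values were seen, 15 had a value, and 14 were called lower and 0 higher, with a median log2 ratio of -1.37 and a summed level of 8004 RPKM in oil and 3270 RPKM in CCl4. The elastase Cela2a went from 1448 to 514.9 RPKM at -1.49, the trypsin Prss2 from 759.9 to 292.9 RPKM at -1.37, and the amylase Amy2a5 from 33.1 to 1.07 RPKM at -4.83. The chymotrypsin Ctrb1 was not called, at 1308 and 678.4 RPKM with a log2 ratio of -0.95, and was lower after scaling to the median mRNA, at -1.27. Mt1 and Mt2 had lower ratios than each of the 15 except Amy2a5. Of the Amy2 genes outside this list, Amy2a2, Amy2a3 and Amy2a4 each went from 14.0 RPKM to a listed 0, a bound of -3.68. Amy2b stood at -2.26. The part of pancreatic RNA in the levels of Mt1 and Mt2 was not tested.

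Mt1 and Mt2 were further down than each of the 9 hepatocyte markers. Slc39a14 was not, since Cyp2e1, Hnf4a and Serpina1a had lower ratios, and only Cyp2e1 had a lower ratio than Slc30a10. In a bulk preparation, fewer hepatocytes and less RNA of a gene per hepatocyte cannot be told apart, and the part of cell composition in the ratios of the metallothioneins and transporters was not tested.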

How the data were processed

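Total RNA of primary hepatocytes was sequenced from 1 oil library and 1 CCl4 library. The authors deposited RPKM values per transcript, with values under 1 RPKM listed as 0. Per the labels, the notes on processing name CASAVA 1.4, TopHat2 and the mouse build mm10. The counting program, its use of strand and the annotation version are not given in the sources used here. The deposited table also holds columns of the authors' own comparison (a fold change on the log2 scale, p and q), none of which was used. The tables of new lncRNAs were not used here, and the lncRNA table served only for depth.

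Symbols came from a table of RefSeq genes (GRCm38.p6) by accession, and 27049 of 27457 mRNA transcripts had one. Where a gene had several transcripts, that with the largest mean over both libraries stood for it. Genes entered with at least 1 RPKM in 1 library, and a value listed at 0 in 1 library was put at 1 RPKM, which gives a bound. Restoring such values, as the design had foreseen, would have needed the authors' own log2 change and was left out. Ratios took 0.1 RPKM as pseudocount.

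The library total giving whole reads (within 0.05 reads, widened by the rounding of the deposited values) was searched over RefSeq RNAs shorter than 400 bases, and 215 of 221 in oil and 229 of 236 in CCl4 came out whole. For each of the 6 genes, lengths of 50 to 30000 bases were tried and the first at which both libraries had whole reads was kept, so reads are lower bounds and intervals are widest. Calls, totals and lower bounds were tested on simulated data. No p-value was computed, since each group has 1 library.

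The 6 genes and all lists were chosen with earlier results of these data known. Named genes are the 6 genes, the genes of the lists that were called or at 10 RPKM or more, and the 3 genes nearest in log2 ratio within 2-fold of the oil level of Mt1, Mt2 and Slc39a14. Family members and markers outside this rule are named where a count needs them, and the pancreatic enzymes were listed after their values were seen. Hepatocyte marker Tf, Kupffer cell marker Cd68 and T cell marker Trbc2 had no matching transcript. Python 3.11.15, numpy 2.4.6, pandas 2.3.3, scipy 1.17.1 and matplotlib 3.10.9 were used.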

Additional observations from a re-analysis of the deposited data

How the results depend on the processing

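The minimum of 10 RPKM and the scaling to Alb were chosen after seeing the data. At a log2 ratio of 1, Mt1, Mt2, Slc39a14 and Slc30a10 were lower in each setting that kept them, which leaves out Slc30a10 at the minimum of 10 RPKM. Scaling to the median mRNA gave log2 ratios of -2.78 for Mt1, -2.86 for Mt2, -1.88 for Slc39a14, -1.99 for Slc30a10 and -0.10 for Slc30a1. Scaling to Alb gave -2.04, -2.11, -1.14, -1.27 and 0.64 in the same order, and 0.42 for Mtf1. Leaving the 10 most abundant mRNAs out of the library size gave -2.29 for Mt1 and -2.37 for Mt2.

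At a log2 ratio of at least 2, the lower genes were 2 of the 6 (Mt1 and Mt2), 2 of those linked to Mtf1, 1 of the glucocorticoid-induced genes, and 0 of the Slc30 family, the Slc39 family and the manganese and iron genes. The higher genes were then 0 in the Slc39 family and in the Mtf1, copper, and manganese and iron lists. With 1 RPKM added, with scaling to the median mRNA and with a minimum of 10 RPKM, 0 genes of the Slc39 family and 0 copper genes were higher. The median scaling also gave 3 copper genes and 5 manganese and iron genes as lower. The minimum of 10 RPKM removed Slc30a10, which left 0 lower genes in the Slc30 family and 1 in the manganese and iron list.

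Over all mRNA transcripts, 2598 were higher and 852 lower. These became 1393 and 1534 with median scaling, so that most calls were lower instead, and 341 and 130 at a log2 ratio of at least 2. The number higher was 1697 with 1 RPKM added and 1073 with the minimum of 10 RPKM. It rose to 3520, with 621 lower, when the 10 most abundant mRNAs were left out of the library size. With listed zeros kept at 0, 3744 were higher and 1014 lower. The stricter limits and the larger addition lower the counts by construction.

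Dropping the filter on low values gave no other set, since every transcript with a value above 0 is at 1 RPKM or more. No paired analysis was possible because each group has 1 library, so a difference between preparations and an effect of CCl4 cannot be told apart. The counting intervals of Mtf1 and Slc30a1 span 0 at the lower bounds of their reads, where the intervals are widest. For Slc30a1 the lower end lies at -0.01, so whether its interval spans 0 at the true number of reads is not known.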
